A study of Mus musculus with 12 samples.

Results

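Sugars, lactate and short-chain acids, urate, carnitine, vitamins and charged drugs cross the gut epithelium on membrane carriers, and the genes of 7 carrier families are described here across 4 mouse genotypes. The families were the facilitative sugar carriers (Slc2), the sodium-coupled sugar, inositol and monocarboxylate carriers (Slc5), the monocarboxylate carriers (Slc16), the anion and vesicular carriers (Slc17), the organic ion carriers (Slc22), the proton-coupled cation exporters (Slc47) and the organic anion polypeptides (Slco). Membership went by gene symbol alone, which gave 92 of the 23988 genes in the table. The rule uses no measured value. It also takes in Slc2a4rg-ps and Slc22a13b-ps, pseudogene entries that match by name.

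RNA of whole tissue labelled jejunum was sequenced from adult mice in 4 groups of 3 libraries. WT served as the control. AKO carried Rab11aL/L with VillinCreER+, a floxed Rab11a removed by a tamoxifen-inducible Cre under the villin promoter, which is active in the gut epithelium and not in the other cells of the wall. BKO was Rab11b-/-, and DKO carried Rab11aL/L, Rab11b-/- and VillinCreER+ together. Mice of all 4 groups had received tamoxifen at 40 mg/kg, and the tissue was taken 2 days later. For WT and BKO the labels leave it unsaid whether floxed Rab11a or the Cre was present, so Cre activity and loss of Rab11a cannot be told apart. They also do not say that numbered samples are separate animals, so p-values measure the spread between these samples, which may be technical. The study asked whether Rab11a and Rab11b, small GTPases of recycling endosomes, act redundantly, and the comparisons here ask which carrier genes differ after each loss and after both.

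In an absorptive cell, glucose and galactose enter from the lumen together with sodium through SGLT1, the product of Slc5a1, and fructose enters through GLUT5, the product of Slc2a5. Sugars then leave towards the blood through facilitative carriers, of which GLUT2 (Slc2a2) is the classical one. The sodium pump at the basolateral side keeps up the gradient that the Slc5 carriers use. Short-chain acids, lactate and ketone bodies move with sodium (Slc5a8, Slc5a12) or with protons (Slc16 family). Carnitine, ergothioneine and organic cations use Slc22 and Slc47 carriers. Several of these proteins reach or stay at the membrane with the help of partners, such as basigin for the proton-coupled monocarboxylate carriers and the scaffold PDZK1 in the brush border.

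Promoter sequence is shown first for 4 carriers that the results below turn on, so that the genes with opposite changes can be set side by side: the main luminal sugar carriers Slc5a1 and Slc2a5 and the ergothioneine carrier Slc22a4, which were lower in DKO, and the basal glucose carrier Slc2a1, which was higher. Each line gives 250 bases before to 50 after the annotated start, 5′ to 3′ on the strand of the gene, from RefSeq on GRCm38.p6. The positions are chr5:33103969-33104268 (plus strand) for Slc5a1, chr4:150119094-150119393 (plus strand) for Slc2a5, chr11:54028055-54028354 (minus strand) for Slc22a4 and chr4:119108495-119108794 (plus strand) for Slc2a1. Capitals mark every match, on either strand, to a searched motif.
Slc5a1: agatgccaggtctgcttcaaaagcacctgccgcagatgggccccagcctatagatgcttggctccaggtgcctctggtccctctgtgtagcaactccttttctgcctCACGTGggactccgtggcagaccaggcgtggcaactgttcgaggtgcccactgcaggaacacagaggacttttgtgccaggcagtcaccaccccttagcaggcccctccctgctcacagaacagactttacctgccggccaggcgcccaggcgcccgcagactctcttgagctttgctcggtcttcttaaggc
Slc2a5: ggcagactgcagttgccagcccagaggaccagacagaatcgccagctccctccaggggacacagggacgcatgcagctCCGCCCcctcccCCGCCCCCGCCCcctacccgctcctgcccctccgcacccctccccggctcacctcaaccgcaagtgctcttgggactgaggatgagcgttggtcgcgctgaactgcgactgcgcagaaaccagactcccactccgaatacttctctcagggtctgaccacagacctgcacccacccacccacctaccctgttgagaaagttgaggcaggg
Slc22a4: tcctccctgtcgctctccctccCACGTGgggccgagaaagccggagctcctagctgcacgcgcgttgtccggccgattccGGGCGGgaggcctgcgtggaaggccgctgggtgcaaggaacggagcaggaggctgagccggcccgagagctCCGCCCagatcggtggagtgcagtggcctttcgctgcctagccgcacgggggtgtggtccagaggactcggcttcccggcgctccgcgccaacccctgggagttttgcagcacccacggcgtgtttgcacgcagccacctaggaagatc
Slc2a1: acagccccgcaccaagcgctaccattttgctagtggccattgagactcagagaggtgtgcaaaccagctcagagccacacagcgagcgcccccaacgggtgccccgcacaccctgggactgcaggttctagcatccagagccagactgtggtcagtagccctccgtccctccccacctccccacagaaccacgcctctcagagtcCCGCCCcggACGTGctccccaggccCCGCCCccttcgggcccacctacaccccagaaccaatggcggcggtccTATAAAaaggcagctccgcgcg

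The searched motifs were an HNF1 half-site (GTTAAT), an HNF4 site (CAAAGTCCA), an AP-1 site (TGANTCA), the core of a hypoxia element (ACGTG), a GC box (GGGCGG) and a TATA box (TATAAA). The windows of Slc5a1 and Slc22a4 each hold CACGTG, which reads ACGTG on both strands, and the 2 matches overlap. That of Slc2a1 holds a hypoxia core 36 bases before the start, between GC boxes, and that of Slc2a5 holds 3 GC boxes. The RefSeq table had a window for 72 of the 92 members, among them 16 of the 22 called lower in DKO against WT and 6 of the 10 called higher (17.2% and 14.6% of all tested genes were so called). The hypoxia core was in 2 of 19 windows of the genes that fell, 2 of 6 of those that rose and 6 of 18 of the tested genes that were not called, against 19.6% of all 32851 promoter windows. GC boxes were in 7 of 19, 5 of 6 and 8 of 18 windows in the same order, against 35.7%. The HNF1 half-site was in 2, 0 and 0 windows (7.1% of all), the AP-1 site in 2, 0 and 0 (7.81%), the TATA box in 1, 1 and 2 (13.6%) and the HNF4 site in 0, 0 and 0 (0.475%). These matches describe letters in a short window and were not tested as sites.

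The table gives, for each gene and library, read counts divided by 1 scaling factor per library, written here as fpm, a scale near to fragments per M reads. These levels are not divided by gene length, so levels are compared between libraries and not between genes. Depth was 19.2 M to 29.8 M reads, and 1 read was worth 0.0313 to 0.0563 fpm. A gene was tested when at least 3 libraries reached 1 fpm, which 13675 genes did. Changes are differences of log2(fpm + 1) from limma with their standard errors, and they understate the change of genes with low levels. A gene was called higher or lower at a Benjamini-Hochberg adjusted p under 0.05 over all tested genes.

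The deleted genes were lower in the groups whose labels name their loss, but Rab11a fell less in DKO than in AKO. Rab11a was 182 to 188 fpm in WT, 48.9 to 67.2 in AKO and 96.0 to 112 in DKO, and Rab11b was 110 to 120 in WT, 22.4 to 30.6 in BKO and 21.7 to 24.6 in DKO. The log2 change of Rab11a against WT was -1.64 ± 0.15 in AKO and -0.81 ± 0.15 in DKO (SE). DKO against AKO and the interaction thus compare groups with unequal Rab11a RNA in the tissue, and the reason was not tested. Markers of gut regions, chosen after values had been seen, did not all follow the jejunum label. The proximal genes Lct and Gata4 were low, as was Fabp1 outside BKO replicate 3. The bile acid genes of the distal gut were at least 109 fpm in every library. Of the proximal genes, Lct was listed at 0 to 0.263 fpm and Gata4 at 0.407 to 4.59, while Rbp2 was 107 to 2761 and Apoa4 47.8 to 3068. Of the distal genes, the bile acid genes Fabp6, Slc10a2, Slc51a and Slc51b had reads in every library (728 to 13330, 403 to 836, 368 to 1674 and 109 to 502 fpm), and Fgf15 was 2.98 to 45.2 fpm. Fabp6, Slc51a and Slc51b were called lower in DKO against WT (log2 -3.18, -1.86 and -1.31, adjusted p = 0.00173, 0.00202 and 0.0117). Slc10a2, Fgf15, Gata4, Fabp1, Rbp2 and Apoa4 were not called, and Lct was not tested. The part of gut region in the carrier levels was not tested. BKO replicate 3 stood apart, with the highest Gata4, Rbp2 and Apoa4 and with Fabp1, a fatty acid binding protein of proximal gut, at 242 fpm against 1.89 to 35.0 in the other 11 libraries. Xist, the RNA of the inactive X chromosome, was 145 to 342 fpm in 7 libraries (1 WT, 1 AKO, 2 BKO and all 3 DKO) and at most 0.22 fpm in the other 5, which include BKO replicate 3. The labels give no sex, so sex and genotype are partly mixed in these groups, and counts and tests that rest on BKO are given with and without its replicate 3.

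Of the 92 carrier genes, 26 had 0 reads in every library, 13 had reads but too few to be tested, and 53 were tested. The Slc2 family was tested whole (13 of 13), whereas 9 of 26 Slc22 and 4 of 15 Slco genes were tested. In the Slc5, Slc16 and Slc17 families 10 of 13, 11 of 14 and 5 of 9 were tested, and of the Slc47 pair only Slc47a1. The highest level among the 13 untested genes with reads was 1.36 fpm, for Slc16a4. Slc16a9 and Slc2a12 passed the filter only through DKO, so that their difference was part of being tested.

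Carrier genes were called in DKO and, by limma, in neither single loss. In DKO against WT, 22 of the 53 tested genes fell and 10 rose, where 17.2% and 14.6% of all tested genes did, and their median log2 change was -0.62 against -0.009 for all genes. The 10 rises include Slc16a9 and Slc2a12, whose calls were partly set by the filter. In AKO against WT 0 of 53 were called in either direction by limma, with 1 gene at an unadjusted p under 0.05, and 0.00731% of all genes were called. BKO against WT gave 0 of 53 as well, with 4 (7.55%) at an unadjusted p under 0.05, as were 10.7% of all genes, and 0.0439% of all genes called. The edgeR test on recovered reads also called 0 in both single losses, and DESeq2 called 0 in AKO and, in BKO, 1 higher and 1 lower of 66 tested members, with 129 higher and 120 lower over all 18200 genes it tested. Without any 1 of the WT or DKO libraries the rises against WT numbered 4 to 6, while the falls numbered 15 or 16. Over all genes the calls dropped too, from 1995 higher and 2353 lower to 1298 to 1599 higher and 1393 to 1845 lower. The WT and DKO libraries did not overlap for 37 of the 53 genes (69.8%), where 55% of all tested genes did not. Against WT the same held for 2 genes in AKO (3.77%, with 8.49% of all genes) and 5 in BKO (9.43%, with 17.3% of all genes). In bulk tissue, fewer cells of a type and less RNA per cell cannot be told apart.

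The 7 families differed in how their members lay. The Slc5 family had 7 of 10 tested genes lower and 1 higher, with a median of -2.08. In the Slc22 family 6 of 9 were lower and 1 higher (median -0.86). The Slc2 family had 4 lower and 2 higher of 13 (median -0.62), and the Slc17 family 2 lower and 1 higher of 5 (median -0.60). The Slc16 family lay the other way, with 4 higher and 1 lower of 11 and a median of 0.30. Slc16a9 and, in the Slc2 family, Slc2a12 are counted as higher but passed the filter only through DKO. Of 4 tested Slco genes 1 was lower and 1 higher, and Slc47a1 was lower. Whether these families differ from each other was not tested.

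**Figure D1:**
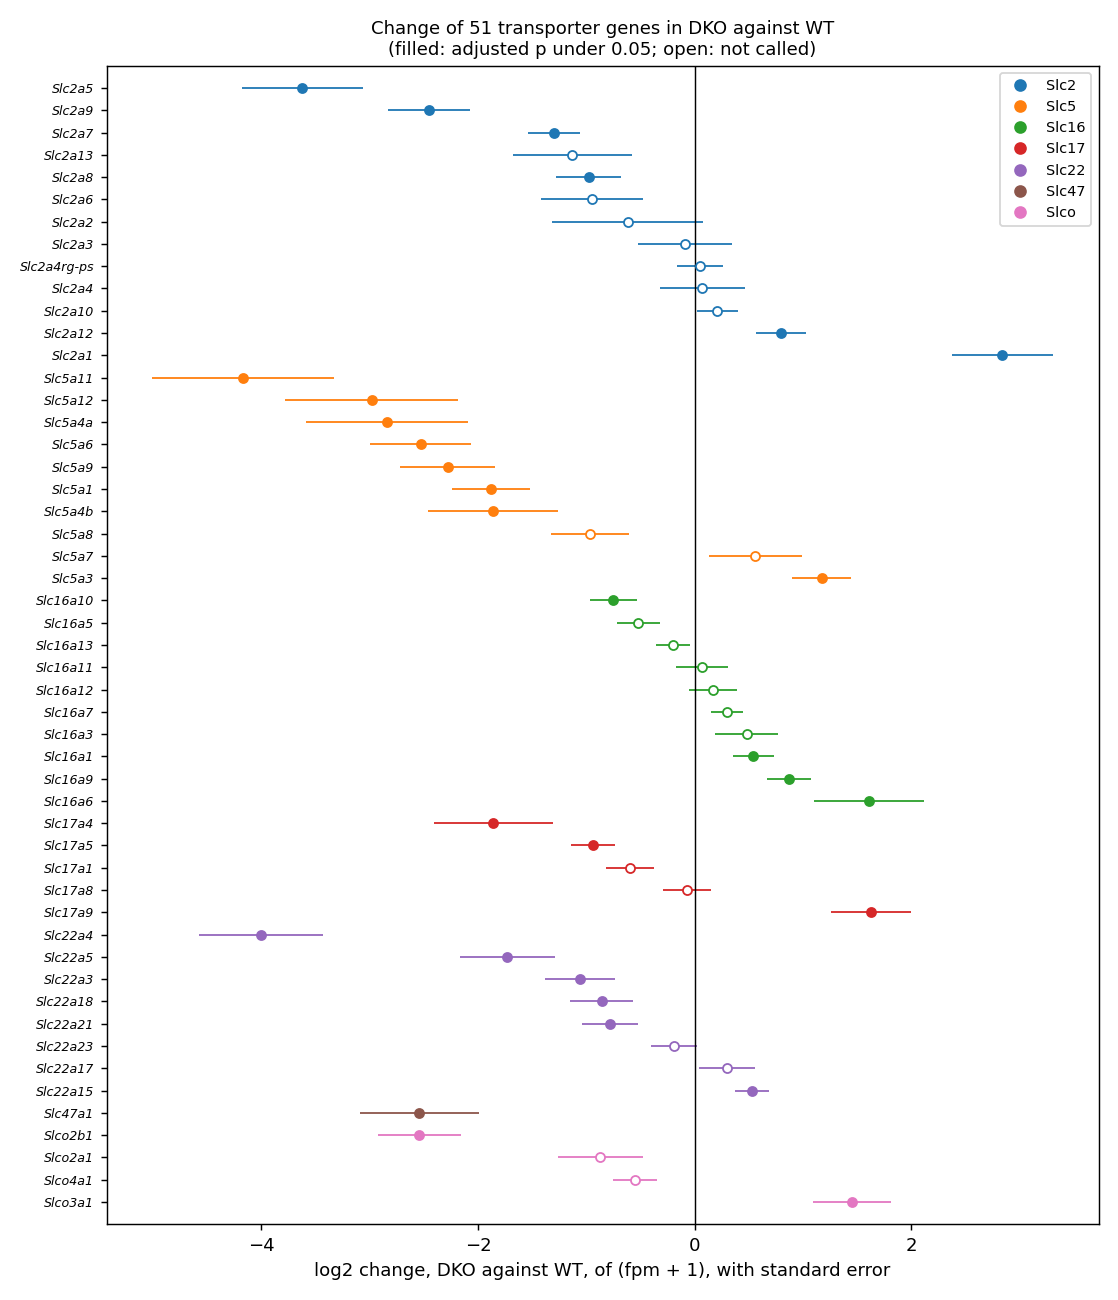
Log2 change of 51 of the 53 tested carrier genes in DKO against WT, on the log2(fpm + 1) scale, with standard errors; filled points were called and open points were not. The Slc5 family holds 7 falls, while the Slc16 family holds 3 of the rises drawn.

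Cell markers moved with these results, and their part in them was not tested. Of 8 general epithelial markers 1 was higher and 1 lower in DKO, and their summed level was 20980 to 28280 fpm in DKO, 20280 to 22700 in WT, 18920 to 19210 in AKO and 23710 to 25910 in BKO. Of 9 tested enterocyte markers 7 fell in DKO and 0 rose. The summed enterocyte level was 5477 to 7419 fpm in DKO, 21750 to 24730 in WT, 17590 to 31020 in AKO and 19000 to 31670 in BKO, and Lct was at 0 in WT and BKO. All 6 fibroblast markers rose (714 to 1150 fpm against 223 to 320 in WT, 292 to 421 in AKO and 276 to 395 in BKO). Of 7 macrophage markers 4 rose (243 to 269 fpm against 92.4 to 119 in WT, 83.1 to 106 in AKO and 47.9 to 136 in BKO). T cell markers fell for 2 of 4 (5.64 to 14.1 fpm against 59.9 to 80.8 in WT, 34.1 to 57.4 in AKO and 0.404 to 63.4 in BKO). Of 6 smooth muscle, 6 endothelial, 4 B and plasma cell, 4 red blood cell, 1 pancreatic and 1 neutrophil gene tested, 1 endothelial and the neutrophil gene rose.

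The 6 genes grouped here under sugar uptake at the luminal side all fell. All 6 were tested, with a median log2 change of -2.08 in DKO against WT, and each was called. They include Slc5a4a and Slc5a4b, related copies whose limits are given below. For Slc5a1, the sodium-coupled glucose and galactose carrier, the 3 WT libraries read 1601, 1506 and 1335 fpm, AKO 1156, 1573 and 1126, BKO 1775, 2021 and 611, and DKO 395, 413 and 394. All DKO libraries lay below every other library, BKO replicate 3 was next, and AKO and WT overlapped. Its mean went from 1481 ± 135 fpm (SD, n = 3) in WT to 401 ± 10.95 (SD, n = 3) in DKO, a log2 change of -1.88 ± 0.36 (SE, adjusted p = 0.00395). In AKO the mean was 1285 ± 250 fpm (SD, n = 3).

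The fructose carrier gene Slc2a5 fell further. WT libraries read 33.6, 39.3 and 37.2 fpm, AKO 36.8, 50.5 and 27.8, BKO 30.7, 57.7 and 7.23, and DKO 1.21, 3.26 and 2.06. DKO did not overlap any group, and BKO replicate 3 lay between DKO and the rest. The log2 change was -3.62 ± 0.56 (SE, adjusted p = 0.00154). Slc2a7, its direct neighbour on chromosome 4 and a related brush border carrier (GLUT7), was low throughout, at 1.71, 2.67 and 1.59 fpm in WT and 0, 0.303 and 0.320 in DKO. It fell by 1.30 on the log2 scale (SE 0.24, adjusted p = 0.00318). Unlike Slc2a5, it was 1.84 fpm in BKO replicate 3, inside the WT range.

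Slc5a9 encodes SGLT4, a sodium-coupled carrier of mannose and related sugars. Its WT libraries lay at 21.2, 18.9 and 19.3 fpm, AKO at 20.3, 23.3 and 19.7, BKO at 18.7, 25.0 and 4.40, and DKO at 3.10, 3.29 and 3.43. Spread within WT, AKO and DKO was small, and the change was -2.28 ± 0.44 (SE, adjusted p = 0.00397). Slc5a4a and Slc5a4b are adjacent mouse copies of the gene for SGLT3, a protein described in humans as a glucose sensor. Reads of such related copies may be split or shared between them, which was not tested, so each value is uncertain. Slc5a4a read 6.12, 7.24 and 5.23 fpm in WT and 0 in all 3 DKO libraries and in BKO replicate 3. Against a floor of 3 reads over the 3 DKO libraries (0.0435 fpm) that is at least 142-fold lower than the WT mean of 6.19 fpm, and the fitted change was called (adjusted p = 0.0161). Slc5a4b was 2.53, 5.01 and 3.91 fpm in WT and 0.291, 0.265 and 0.320 in DKO, with a change of -1.86 ± 0.60 (SE, adjusted p = 0.0361).

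**Figure D2:**
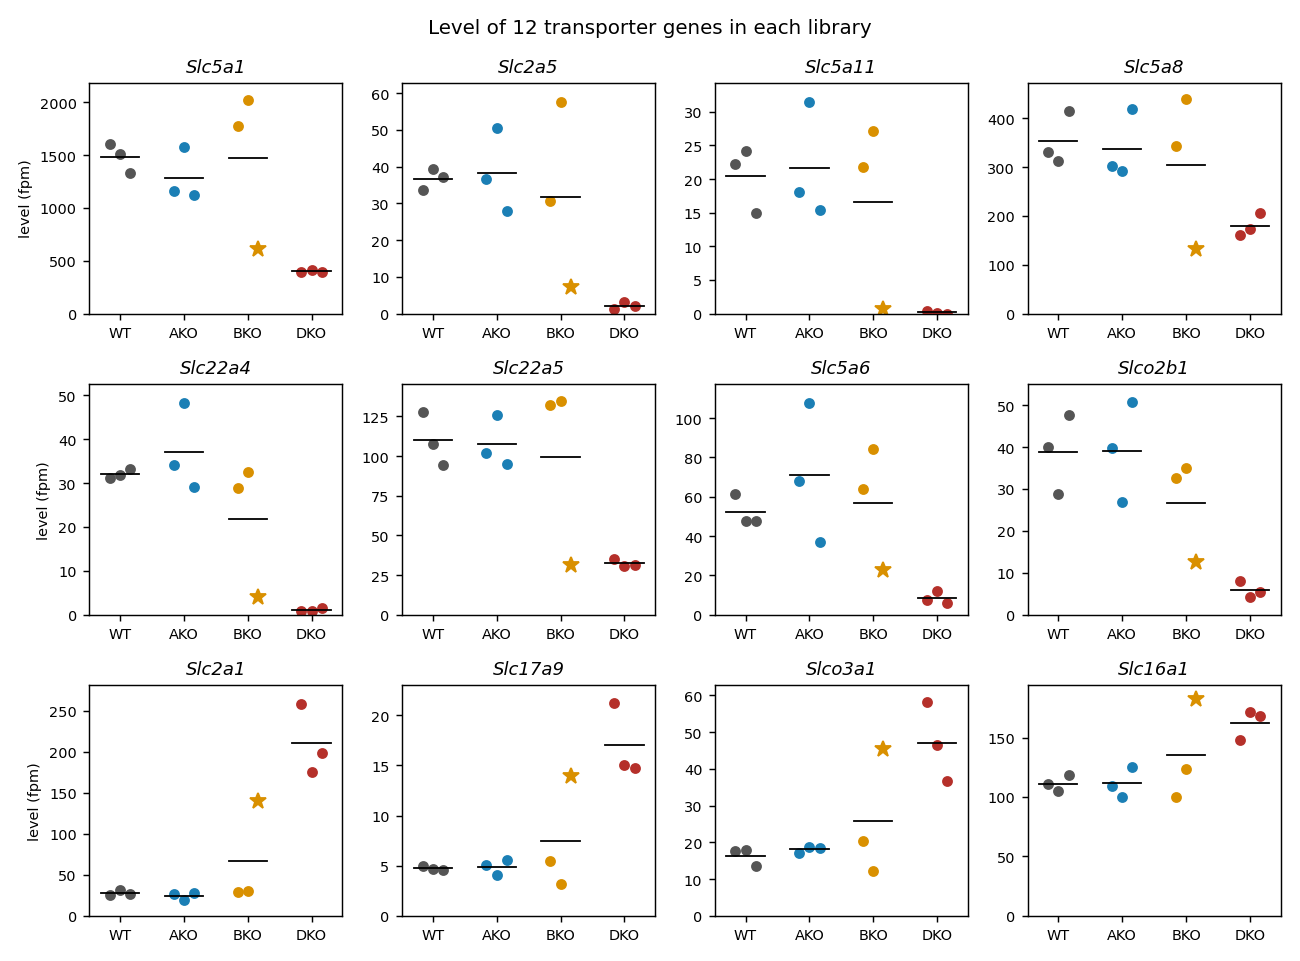
Level in fpm of 12 carrier genes in each of the 12 libraries; points are libraries, the star is BKO replicate 3 and the bars are group means. Slc5a1 lies at 394 to 413 fpm in DKO and at 1335 to 1601 in WT, and Slc2a1 at 175 to 259 fpm in DKO and 25.9 to 31.9 in WT.

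Carriers of glucose outside the luminal route showed both directions, with 2 of 8 genes higher, 1 lower and a median of -0.01. The higher genes were Slc2a1 and Slc2a12, and Slc2a12 passed the filter only through DKO. Slc2a1 encodes GLUT1, the basal glucose carrier of many cell types, and it had the largest rise among the tested carrier genes on the log2(fpm + 1) scale. It read 25.9, 31.9 and 26.9 fpm in WT, 26.3, 19.5 and 27.4 in AKO, 28.9, 30.9 and 140 in BKO, and 259, 175 and 198 in DKO. The DKO libraries stood above all others, and BKO replicate 3 stood alone between them and the remaining 8. The mean was 28.2 ± 3.23 fpm (SD, n = 3) in WT and 211 ± 43.1 (SD, n = 3) in DKO, a log2 change of 2.84 ± 0.47 (SE, adjusted p = 0.00202).

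Slc2a2, the gene of the basolateral sugar carrier GLUT2, was scarce. It read 1.10, 1.13 and 0.104 fpm in WT, 0.0939, 10.2 and 0.351 in AKO, 0.696, 0.282 and 0.587 in BKO and 0, 0.189 and 0.137 in DKO. AKO replicate 2 was the only library above 1.13 fpm, the groups overlapped and the change was not called (-0.62 ± 0.70, SE, adjusted p = 0.511). Some region markers given above did not follow the jejunum label, and their bearing on the level of Slc2a2 was not tested. Slc2a3, the neuronal glucose carrier GLUT3, also overlapped between groups, at 3.06 to 6.47 fpm in WT and 2.52 to 6.84 in DKO (-0.09 ± 0.43, SE, adjusted p = 0.881). This sign turned when WT replicate 2 (0.12) or DKO replicate 3 (0.19) was left out. Slc2a8, whose product GLUT8 sits on internal membranes, fell (6.97, 7.17 and 8.55 fpm in WT and 3.88, 3.22 and 2.97 in DKO). Slc2a12, which passed the filter only through DKO, rose from at most 0.897 fpm in WT to 2.62, 1.70 and 1.24 fpm in DKO.

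The 3 inositol carriers did not move as one. Slc5a11 encodes SMIT2, a sodium-coupled inositol carrier, and fell to near 0. Its levels were 22.2, 24.2 and 14.98 fpm in WT, 18.03, 31.4 and 15.4 in AKO, 21.8, 27.2 and 0.697 in BKO, and 0.437, 0.114 and 0 in DKO. DKO was near 0 in each library, and so was BKO replicate 3. The fit gave -4.17 ± 0.84 (SE, adjusted p = 0.00469).

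Slc5a3, which encodes the related carrier SMIT1, rose instead. WT libraries read 7.95, 7.46 and 4.98 fpm, AKO 8.73, 7.003 and 8.73, BKO 12.4, 9.63 and 22.3, and DKO 17.2, 17.6 and 14.2. DKO lay above WT and AKO, and BKO replicate 3 lay above DKO. The change was 1.17 ± 0.27 (SE, adjusted p = 0.00868). Slc2a13, a proton-coupled inositol carrier, was 11.5 to 15.95 fpm in WT and 3.16 to 9.12 in DKO and was not called (adjusted p = 0.137). Without BKO replicate 3 it was called lower (adjusted p = 0.0115).

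Among carriers of urate and other anions, 2 of 3 tested genes fell. Slc2a9 encodes GLUT9, a urate carrier despite its place in the sugar family. WT libraries read 38.8, 43.7 and 49.8 fpm, AKO 44.0, 53.4 and 39.0, BKO 41.9, 54.5 and 14.2, and DKO 7.61, 8.06 and 6.08. DKO lay apart from all other groups, with a change of -2.45 ± 0.38 (SE, adjusted p = 0.00146). Slc17a4, an intestinal anion carrier, read 59.4, 40.7 and 51.8 fpm in WT, 62.4, 45.1 and 8.99 in BKO and 20.4, 9.12 and 11.8 in DKO (-1.86 ± 0.55, SE, adjusted p = 0.0263). BKO replicate 3 was below every DKO library. Its neighbour on chromosome 13, Slc17a1, was at most 1.48 fpm and not called against WT, though it was called lower without BKO replicate 3 (adjusted p = 0.0116).

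Of the other Slc17 genes, Slc17a5 encodes sialin, which exports sialic acid from lysosomes. It fell from 31.1, 31.3 and 38.7 fpm in WT to 15.3, 17.7 and 18.2 in DKO (-0.94 ± 0.20, SE, adjusted p = 0.00638). Slc17a9, which loads nucleotides such as ATP into vesicles, rose. It read 5.01, 4.65 and 4.53 fpm in WT, 5.10, 4.05 and 5.57 in AKO, 5.47, 3.15 and 13.9 in BKO, and 21.2, 15.03 and 14.7 in DKO. Again DKO was highest and BKO replicate 3 next to it, with a change of 1.63 ± 0.37 (SE, adjusted p = 0.00807).

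Monocarboxylate carriers are coupled to sodium or to protons. Of the pair that uses sodium, Slc5a12 (SMCT2, a lactate carrier) fell and Slc5a8 (SMCT1, the carrier of butyrate and other short-chain acids) was not called. Slc5a12 read 16.6, 28.2 and 14.3 fpm in WT, 16.3, 26.2 and 22.2 in AKO, 19.9, 75.2 and 3.08 in BKO, and 0.825, 2.498 and 1.51 in DKO. DKO was below all other libraries, and BKO spanned the widest range (-2.98 ± 0.80, SE, adjusted p = 0.0172). Slc5a8 read 330, 312 and 416 fpm in WT, 303, 292 and 419 in AKO, 342, 440 and 131 in BKO, and 160, 172 and 205 in DKO. WT and DKO did not overlap, yet BKO replicate 3 lay below DKO and the change of -0.97 ± 0.36 (SE) had an adjusted p of 0.062. Slc5a8 was called lower in 5 of the alternatives, among them DESeq2, Xist state as a term and the fit without BKO replicate 3 (adjusted p = 0.00113).

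Of those that use protons, 1 of 3 tested genes rose and 0 fell. Slc16a1 encodes MCT1, the widespread carrier of lactate, butyrate and ketone bodies. It was 111, 105 and 118 fpm in WT, 109, 99.99 and 126 in AKO, 99.7, 124 and 183 in BKO, and 148, 171 and 168 in DKO. DKO lay above WT and AKO, by 0.54 ± 0.19 on the log2 scale (SE, adjusted p = 0.0486). The call was lost in 12 of the 22 alternatives, among them each of those that left out 1 WT, AKO or DKO library. Slc16a3, the lactate exporter MCT4, was 23.4 to 42.8 fpm in WT and 28.6 to 62.8 in DKO, with overlap (0.48 ± 0.29, SE, adjusted p = 0.228).

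Among the other Slc16 genes, Slc16a6, implicated in ketone body export in the zebrafish liver, read 9.78, 14.3 and 9.59 fpm in WT, 9.88, 7.66 and 48.4 in BKO, and 29.3, 36.7 and 42.5 in DKO (1.61 ± 0.51, SE, adjusted p = 0.0349). BKO replicate 3 exceeded every DKO library. Slc16a9 went from 0.530, 0.805 and 0.657 fpm to 2.96, 1.59 and 1.74 (0.87 ± 0.20, SE, adjusted p = 0.00827), and here BKO replicate 3 was the lowest library, at 0.147 fpm. Slc16a9 passed the filter only through DKO, so its difference was part of being tested and its adjusted p is no support for it.

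Slc16a10 encodes TAT1, through which aromatic amino acids leave the enterocyte. Its levels were 47.3, 54.9 and 52.2 fpm in WT, 73.7, 82.8 and 63.5 in AKO, 67.4, 105 and 53.1 in BKO, and 27.2, 35.3 and 28.3 in DKO. AKO lay above WT and DKO below it without overlap, and BKO replicate 3 was inside the WT range. Against WT, DKO fell by 0.75 on the log2 scale (SE 0.22, adjusted p = 0.0233). Slc16a5, a carrier described for some drugs, was 141 to 154 fpm in WT and 81.8 to 127 in DKO and was not called (adjusted p = 0.0695). It was called lower in 4 of the alternatives, among them the fit without BKO replicate 3 (adjusted p = 0.0226).

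Of 8 genes grouped here as carriers of organic cations and carnitine 6 were tested, and these 6 fell, with a median of -1.39. The grouping leaves out other Slc22 genes given below, among them Slc22a15, which rose, and Slc22a18, which fell. The OCTN genes Slc22a5, Slc22a21 and Slc22a4 lie next to each other on chromosome 11 of GRCm38.p6, with no other protein-coding gene between them, and all were lower. Slc22a4 encodes the ergothioneine carrier OCTN1. WT libraries read 31.2, 31.9 and 33.2 fpm, AKO 34.0, 48.2 and 29.2, BKO 28.9, 32.4 and 4.04, and DKO 0.922, 0.909 and 1.42. The WT spread was small and DKO was the lowest group in every library, with a change of -4.00 ± 0.57 (SE, adjusted p = 0.000987).

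Slc22a5 encodes OCTN2, the main carnitine carrier. It read 128, 108 and 94.5 fpm in WT, 102, 126 and 94.8 in AKO, 132, 135 and 31.2 in BKO, and 35.0, 30.5 and 31.6 in DKO. BKO replicate 3 fell inside the DKO range, while the other 8 libraries outside DKO were at least 94.5 fpm. The change was -1.73 ± 0.44 (SE, adjusted p = 0.014) and missed the threshold without WT replicate 1 (adjusted p = 0.051). Slc22a21, the mouse carnitine carrier OCTN3 between them, was 12.3 to 14.6 fpm in WT and 6.06 to 8.44 in DKO, a smaller change of -0.78 ± 0.26 (SE, adjusted p = 0.0429). This call was lost in 10 of 22 alternatives, among them the replicate block and no filter.

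Slc22a3 encodes OCT3, a polyspecific cation carrier. It was 2.66 to 4.12 fpm in WT, 1.65 to 4.36 in BKO and 0.485 to 1.42 in DKO. WT and DKO did not overlap, and the change was -1.06 ± 0.32 (SE, adjusted p = 0.0282).

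Slc47a1 encodes MATE1, a proton-coupled exporter of cations. It read 16.6, 9.88 and 9.83 fpm in WT, 10.6, 32.1 and 7.89 in AKO, 12.3, 25.1 and 5.54 in BKO, and 1.60, 1.55 and 0.595 in DKO. Spread was wide in AKO and BKO, yet DKO lay below every other library (-2.54 ± 0.55, SE, adjusted p = 0.00661). Its neighbour Slc47a2 reached 0.139 fpm at most and was not tested. Of the remaining Slc22 genes, Slc22a18 fell (78.9 to 93.5 fpm in WT and 41.4 to 53.01 in DKO, adjusted p = 0.044), a call lost in 12 of 22 alternatives. Slc22a15 rose by 0.53 ± 0.16 (SE, adjusted p = 0.0318), from 5.01 to 6.91 fpm in WT to 8.71 to 9.17 in DKO. Slc22a23, an orphan carrier, overlapped between groups (107 to 129 fpm in WT and 74.7 to 143 in DKO) and was not called (-0.19 ± 0.21, SE, adjusted p = 0.507), with the sign turned (0.04) without DKO replicate 3.

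Vitamins and larger anions gave clear falls in Slc5a6 and Slco2b1. Slc5a6 encodes SMVT, the sodium-coupled carrier of biotin and pantothenate. Levels were 61.4, 47.4 and 47.7 fpm in WT, 68.1, 108 and 37.0 in AKO, 64.0, 84.0 and 23.0 in BKO, and 7.37, 12.1 and 6.04 in DKO. DKO did not overlap any group (-2.53 ± 0.47, SE, adjusted p = 0.00347). Slco2b1, an uptake carrier of steroid sulfates and many drugs, read 40.1, 28.7 and 47.6 fpm in WT, 39.7, 26.8 and 50.7 in AKO, 32.6, 34.9 and 12.5 in BKO, and 7.95, 4.24 and 5.40 in DKO. It too was lowest in DKO, by -2.54 ± 0.38 on the log2 scale (SE, adjusted p = 0.00129).

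The prostaglandin carrier gene Slco2a1 was not called. It read 164, 177 and 191 fpm in WT, 157, 196 and 63.3 in BKO, and 147, 97.9 and 61.8 in DKO, with a change of -0.87 ± 0.39 (SE, adjusted p = 0.106). In 2 of the alternatives it was called lower, among them the fit without BKO replicate 3 (adjusted p = 0.0156). Slco3a1, an organic anion polypeptide, rose. Its levels were 17.7, 18.03 and 13.5 fpm in WT, 17.2, 18.8 and 18.4 in AKO, 20.3, 12.1 and 45.3 in BKO, and 58.1, 46.5 and 36.8 in DKO. DKO and BKO replicate 3 shared 1 range above all other libraries (1.45 ± 0.36, SE, adjusted p = 0.0127).

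The calls in DKO against WT were not equally firm. Of the 32, 18 were called in each setting in which they were tested, 13 of them falls. The rises among them were Slc2a1, Slc17a9, Slco3a1 and Slc5a3, each tested in all 23 settings, and Slc16a9, which was tested in 19 and passed the filter only through DKO, so that its calls are no sign of firmness. Calls that were lost without 1 of the WT or DKO libraries included those of Slc5a4b, Slc5a12, Slc2a8, Slc2a12, Slc16a6, Slc16a10, Slc17a4, Slc22a3, Slc22a15 and Slc22a21, beside those of Slc16a1, Slc22a5 and Slc22a18 given above.

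**Figure D3:**
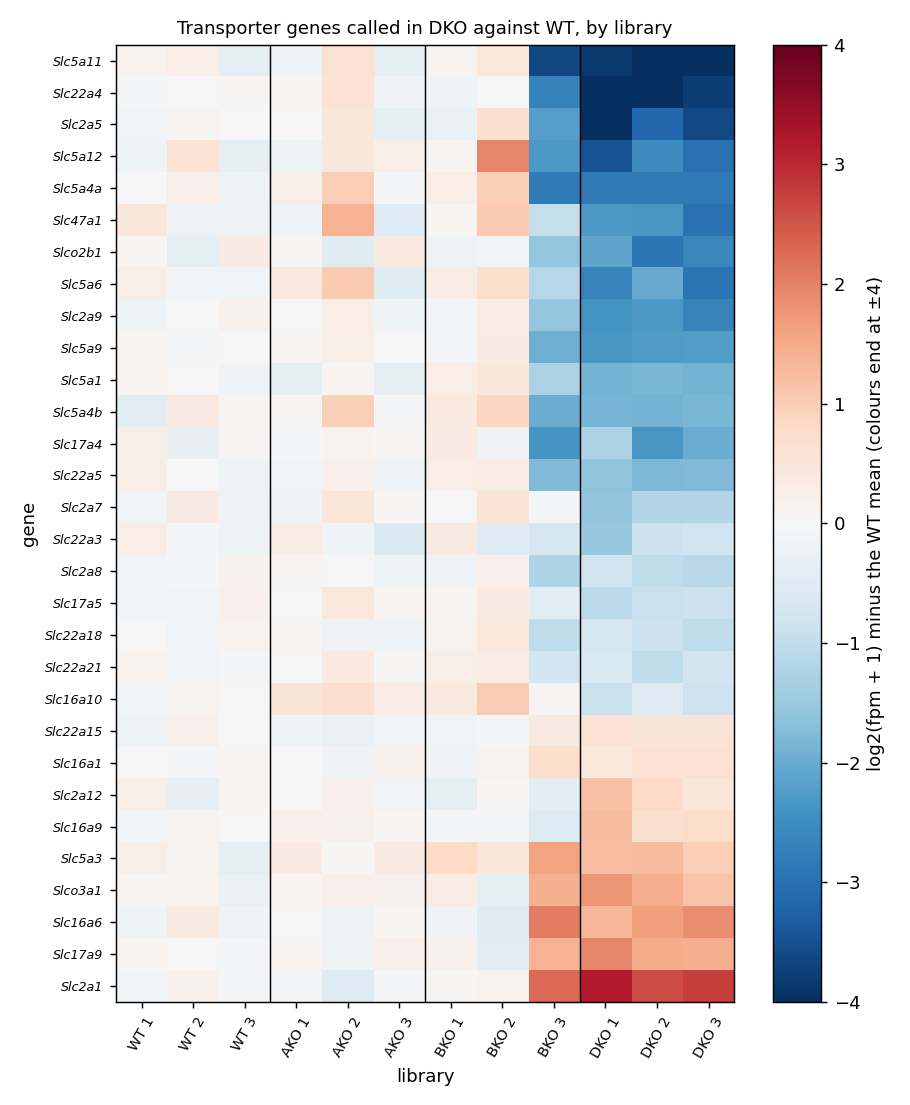
30 of the 32 carrier genes called in DKO against WT, as log2(fpm + 1) in each library minus the WT mean, with colours that end at 4 in either direction. BKO replicate 3 is nearer to the DKO mean than to the WT mean for 23 of the 32 genes, against 1 for BKO replicate 1 and 0 for BKO replicate 2.

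BKO replicate 3 set most of the spread within BKO. Of the 32 called genes it was nearer to the DKO mean than to the WT mean for 23, and for 11 it lay within or past the DKO range, among them Slc5a4a, Slc22a5, Slc5a3 and Slc16a1. In the other BKO and the AKO libraries 0 or 1 gene was nearer to DKO. Over the 53 tested genes BKO replicate 3 was below both other BKO libraries for 40 and above both for 12. Its T cell marker sum was the lowest of BKO, and its levels of Fabp1 and Gata4 are given above; the part of these in the carrier levels was not tested. Without it, BKO against WT still had 0 called carrier genes by limma, with a median of 0.12 in place of -0.14, and DKO against WT had 10 higher and 28 lower, with 21.3% and 23.8% of all genes.

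The double loss also stood apart from each single loss. Against AKO, 21 of the 53 genes were lower and 10 higher, where 17% and 15.3% of all genes were. The rises numbered 3 to 6 without any 1 of the AKO or DKO libraries. Over all genes, the rises were then 1350 to 1606 in place of 2087. Against BKO, 17 were lower and 5 higher, with 12% and 11% of all genes, and these counts were 29 and 9 without BKO replicate 3, where 23.3% and 22.3% of all genes were called. The falls numbered 11 without BKO replicate 1 or 2 or DKO replicate 2 or 3, and the rises 2 or 3 without BKO replicate 1 or any DKO library. Over all genes, the falls were then 719 to 1042 and the rises 857 to 1121. Scaling to the same total per library gave 16 lower and 8 higher against BKO; over all genes it moved the split from 1646 lower and 1498 higher to 968 and 2072, and the median of all genes from 0.001 to 0.151. Slc5a1 differed from AKO and from BKO by -1.66 ± 0.36 and -1.70 ± 0.36 (log2, SE), and by -4.17 ± 0.57 and -3.05 ± 0.57 for Slc22a4. Slc2a1 was higher than in AKO by 3.06 ± 0.47 and than in BKO by 2.03 ± 0.47. Without BKO replicate 3 the differences from BKO were -2.24 ± 0.16 for Slc5a1, -3.93 ± 0.20 for Slc22a4 and 2.76 ± 0.18 for Slc2a1. The comparisons share the DKO libraries and are not independent of each other. Slc16a9 and Slc2a12, which passed the filter only through DKO, are among the rises against AKO and against BKO.

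The interaction, DKO minus AKO minus BKO plus WT, measures how far the double loss departs from the sum of both single changes on the log scale. With all 12 libraries it was called lower for 3 carrier genes (1.88% of all genes) and higher for 0 (2.08% of all genes) by limma, with 25 of 53 (47.2%) at an unadjusted p under 0.05 in either direction, as were 23.9% of all genes. DESeq2 called 1 higher and 17 lower of 66 tested members, with 3.69% and 6.11% of all genes, and edgeR 0 higher and 5 lower of 56, with 0.931% and 1.44%. The falls numbered 0 without WT replicate 1, WT replicate 3 or AKO replicate 1, and 1 without AKO replicate 2, BKO replicate 1 or 2 or any DKO library. Over all genes, the limma falls were then 31 to 122 in place of 257. The vitamin carrier Slc5a6 had an interaction of -2.79 ± 0.67 (SE, adjusted p = 0.0466), Slc16a10 of -1.73 ± 0.31 (adjusted p = 0.0189) and Slc2a7 of -1.58 ± 0.34 (adjusted p = 0.0361). For Slc16a10 the means of both single losses lay above that of WT, at 73.3 ± 9.66 fpm in AKO and 75.3 ± 27.0 in BKO (SD, n = 3) against 51.5 ± 3.85. Neither single change was called (0.50 ± 0.22 in AKO, 0.49 ± 0.22 in BKO, log2, SE), and BKO replicate 3 was inside the WT range. DKO lay below WT at 30.3 ± 4.41 fpm.

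Leaving out BKO replicate 3 raised the interaction calls to 24 lower and 7 higher, while over all genes 2273 were lower and 1908 higher of 13653 tested. Slc22a4 then had -4.11 ± 0.26 (SE, adjusted p = 8.45e-06), Slc5a9 -2.49 ± 0.20 (adjusted p = 2.3e-05), Slc5a1 -2.02 ± 0.22 (adjusted p = 0.000121) and Slc2a5 -3.84 ± 0.44 (adjusted p = 0.000171). Among the rises Slc2a1 had 2.97 ± 0.25 (adjusted p = 3.17e-05) and Slc16a6 1.95 ± 0.28 (adjusted p = 0.000675). These 2 BKO libraries are assumed to vary like the other groups. The called number therefore rests on whether that 1 library is counted, and the direction of the named genes does not.

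**Figure D4:**
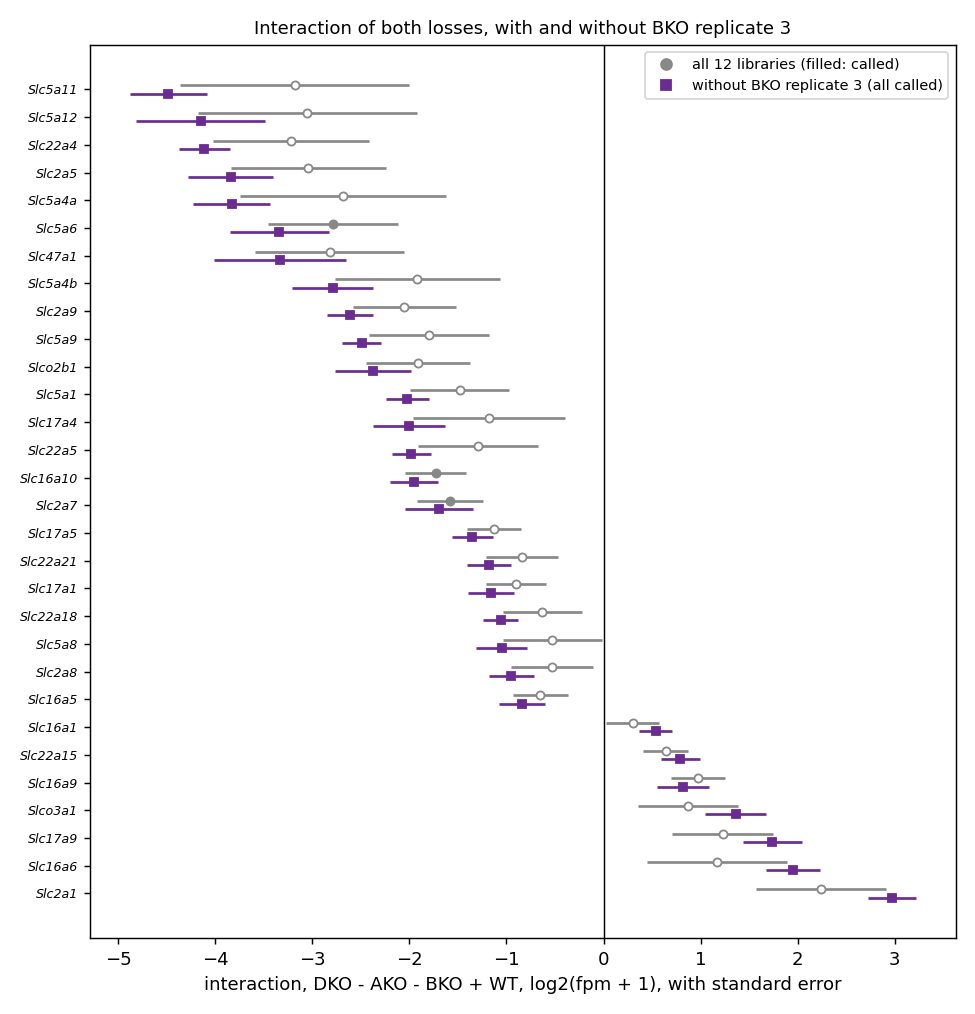
Interaction of both losses on the log2(fpm + 1) scale with standard errors, for 30 of the 31 carrier genes called without BKO replicate 3; circles use all 12 libraries and squares leave that library out. With all libraries 3 genes were called, and of those drawn without it 23 lie below 0 and 7 above.

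Genes that act with these carriers were counted from lists around the transporters. Chaperones, scaffolds and the sodium pump had 5 of 9 genes lower in DKO and 0 higher, with a median of -0.66. Pdzk1, the brush border scaffold, read 288, 278 and 229 fpm in WT, 235, 608 and 156 in AKO, 367, 453 and 31.1 in BKO, and 4.51, 7.42 and 6.31 in DKO (-5.25 ± 0.84, SE, adjusted p = 0.0017). DKO lay far below every other library, with BKO replicate 3 next. Bsg, the basigin partner of MCT1, fell by 0.69 (SE 0.15, adjusted p = 0.00626) while Slc16a1 itself was higher.

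Sugar handling inside the cell had 8 of 14 tested genes lower and 2 higher (median -0.82). Khk, the ketohexokinase that starts fructose breakdown, fell from 133, 127 and 117 fpm in WT to 9.02, 9.69 and 10.6 in DKO (-3.55 ± 0.47, SE, adjusted p = 0.000746), and it was 28.0 fpm in BKO replicate 3. Fbp1, of gluconeogenesis, fell by 1.72 (SE 0.25, adjusted p = 0.00111). The hexokinase gene Hk2, whose product phosphorylates glucose after entry, rose from 120, 80.7 and 81.9 fpm to 304, 453 and 293 (1.88 ± 0.33, SE, adjusted p = 0.00267). Of 8 tested lactate and ketone genes 2 rose and 1 fell (median 0.35), with Ldha, the lactate dehydrogenase subunit, higher by 0.62 ± 0.19 (SE, adjusted p = 0.0315), Ldhd, for D-lactate, by 0.86 ± 0.19 (SE, adjusted p = 0.007) and the thiolase gene Acat1 lower (-0.46 ± 0.13, SE, adjusted p = 0.0248).

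Regulators of nutrient and drug carrier genes had 10 of 19 genes lower and 1 higher in DKO (median -0.41). Ppara, a fatty acid receptor, fell from 67.8, 63.2 and 58.1 fpm in WT to 7.37, 5.94 and 6.22 in DKO (-3.09 ± 0.39, SE, adjusted p = 0.000606). Klf4, a factor of differentiated epithelium, fell by 1.11 (SE 0.21, adjusted p = 0.00325), and Hnf4a, a factor of enterocyte genes, fell by 0.73 (SE 0.14, adjusted p = 0.00371). The single rise was Hif1a, of the hypoxia response, at 90.4, 109 and 78.1 fpm in WT, 86.8, 84.0 and 316 in BKO and 245, 277 and 253 in DKO (1.48 ± 0.40, SE, adjusted p = 0.0188). BKO replicate 3 exceeded every DKO library there. In AKO and in BKO 0 genes of these 4 lists were called by limma. These counts stand beside the 17.2% lower and 14.6% higher over all genes, and no set test was run.

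**Figure D5:**
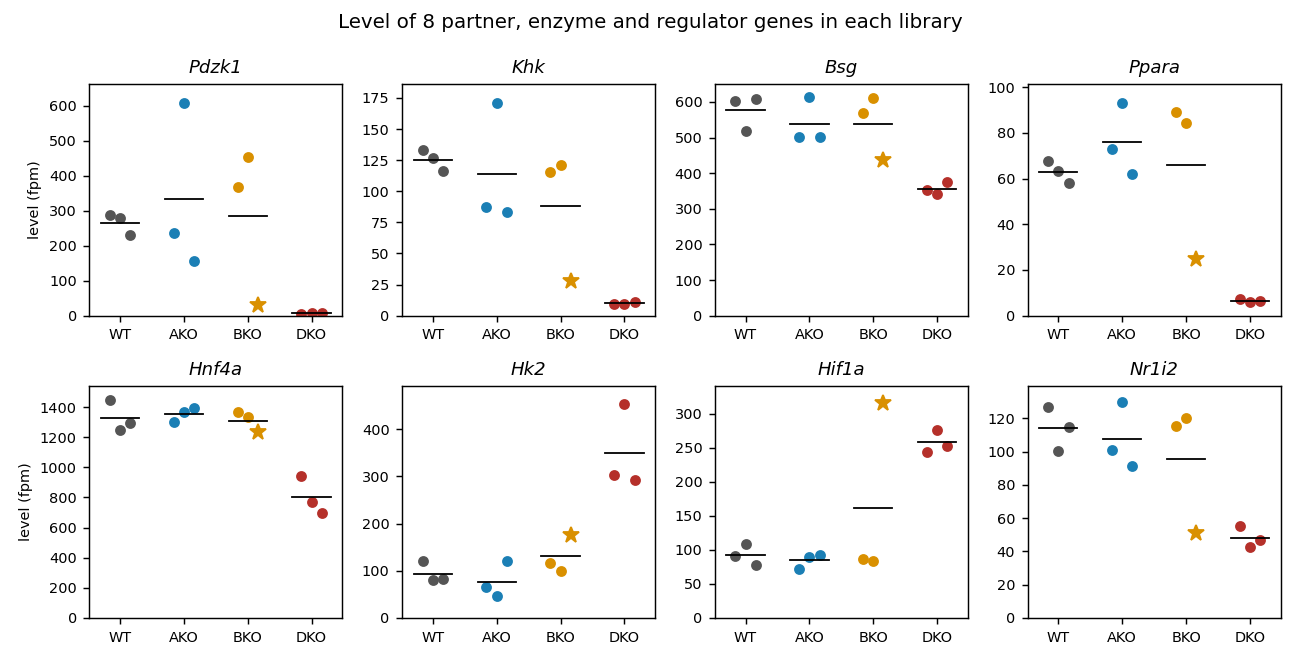
Level in fpm of 8 partner, enzyme and regulator genes in each library, with the star for BKO replicate 3 and bars for group means. Pdzk1 reads 4.51 to 7.42 fpm in DKO against 229 to 288 in WT, and Hif1a reads 245 to 277 against 78.1 to 109.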

How the data were processed

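Whole tissue RNA of 12 mouse samples in 4 groups of 3 was read from 1 deposited table of signal values (fpm), which the authors made by dividing gene counts by 1 factor per library; the unit follows from the values, of which 100% were whole multiples of 1 step within 0.001 reads. The submitters' processing notes name FastQC 0.11.3, Trimmomatic 0.36 and DESeq2 (no version), with the mm9 build. The table's name mentions HISAT2. For the counter and the annotation, nothing is given in the sources used here. Strand is not marked by the kit, so reads of antisense or overlapping genes cannot be told apart.

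The members, gene lists, tests and alternatives were chosen with earlier results of these data known. Columns of other samples numbered 0. In R 4.3.3, limma 3.58.1 with a trended prior was fitted to log2(fpm + 1) of 13675 genes with at least 1 fpm in 3 libraries, with 1 coefficient per group, all 12 libraries, two-sided tests and Benjamini-Hochberg adjustment over all genes. The fit was tested on simulated data. Alternatives were pseudocounts of 0.1 and 5, no filter, a filter of 5, equal totals, Xist state as a term, a replicate block, only the groups compared, each library left out, and edgeR 4.0.16 and DESeq2 1.42.0 on recovered reads. Per-library values or group ranges are printed for members picked by rule, for some of them without the AKO or BKO values. The rule took members called in a single loss and the 15 largest non-overlapping changes per direction in DKO. It also took the 2 highest of each family, the 3 largest interactions per direction and textbook gut carriers. A few other members are given for their families and were chosen after their values were seen. Results of a few genes are not reported here, and 2 members are not drawn in the figures, though both stay in the counts.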

Additional observations from a re-analysis of the deposited data

Results flagged for a closer look

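For 3 carrier genes the effect of both losses together differed from the sum of the single effects by a test of the interaction itself (limma, adjusted over all genes, all 12 libraries). All 3 were lower, where 1.88% of all tested genes were called lower and 2.08% higher. The values on the log2(fpm + 1) scale were -2.79 for the vitamin carrier Slc5a6 (adjusted p = 0.0466), -1.73 for the aromatic amino acid carrier Slc16a10 (adjusted p = 0.0189) and -1.58 for the brush border carrier Slc2a7 (adjusted p = 0.0361). Without BKO replicate 3 these were -3.34, -1.95 and -1.69, with adjusted p of 0.000989, 0.000388 and 0.00564. The calls over all genes rose as well, from 257 lower and 284 higher to 2273 and 1908. Without WT replicate 1, WT replicate 3 or AKO replicate 1, 0 carrier genes were called, and the other exclusions gave 1 or 2.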

How the results depend on the processing

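Of the 32 carrier genes called in DKO against WT, 18 were called in each setting in which they were tested, 13 lower and 5 higher. These were 23 settings for all but Slc2a7, with 22, and Slc16a9, with 19. Slc16a9, 1 of the 5, passed the filter only through DKO, so its calls are no sign of firmness. Among the 18 were Slc5a1, Slc2a5, Slc22a4, Slc5a6, Slco2b1 and Slc2a1. Of the values of named genes under the alternatives, 663 kept direction and call, 59 lost the call, 11 gained it and 3 reversed: Slc22a23 (0.04 without DKO replicate 3, with -0.43 to 0.04 over the libraries left out) and Slc2a3 (0.12 without WT replicate 2, 0.19 without DKO replicate 3, with -0.39 to 0.19). Leaving out 1 library at a time gave 4 to 10 higher and 15 to 28 lower in DKO against WT, 3 to 10 higher and 15 to 27 lower against AKO, 2 to 9 higher and 11 to 29 lower against BKO, and 0 to 7 higher and 0 to 24 lower in the interaction; leaving out any 1 WT or DKO library brought the rises against WT to 6 or fewer, and the highest interaction counts came without BKO replicate 3. The rises against BKO numbered 2 with the filter of 5, 8 with equal totals, 8 with Xist state as a term and 0 with only the groups compared, which left 6 lower. Over all genes these rises were 1050, 2072, 1822 and 461 in the same order, the last with 292 lower. Interaction rises numbered 1 without a filter, 2 with Xist state and 1 with DESeq2, where 272, 676 and 671 of all genes rose. Interaction falls numbered 1 with a pseudocount of 5, 17 with Xist state, 5 with edgeR and 17 with DESeq2. Over all genes these falls were 249, 1025, 214 and 1112. DESeq2 called 1 higher and 1 lower in BKO against WT, with 129 higher and 120 lower over all 18200 genes it tested. Over all genes, leaving out 1 library gave 1298 to 2905 higher and 1393 to 3248 lower in DKO against WT. Against AKO it gave 1350 to 2995 higher and 1432 to 3208 lower, and against BKO 857 to 3047 and 719 to 3177. For the interaction it gave 60 to 1908 higher and 31 to 2273 lower. The cause of these shifts was not tested. With Xist state as a term, DKO against WT had 8 higher and 26 lower, where 2418 of all 13675 tested genes were higher and 2865 lower. Equal totals moved the all-gene median of the interaction from 0.025 to 0.137 and its all-gene split from 284 higher and 257 lower to 367 and 179.

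No sign was seen that replicate numbers pair the samples. Deviations of same-numbered samples correlated at -0.299 to 0.184, with 4 of 18 pairs over 0.1 and 3 of 12 libraries correlating best with their own number. With 3 libraries per group, a weak pairing could go unseen. With a replicate block, 10 higher and 21 lower were called in DKO against WT, 9 and 21 against AKO, 5 and 16 against BKO, and 0 and 4 in the interaction. Over all genes the block gave 1887 higher and 2161 lower against WT and 1948 and 2161 against AKO. Against BKO it gave 1348 and 1539, and in the interaction 160 and 169. Depth limits the 26 genes without reads and the 13 below the filter: they were not detectable or not testable at this depth, which does not show that they are absent.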
